A study of Mus musculus with 11 samples.

Results

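The clustered protocadherins are 58 of the 55421 genes in the count files, taken as every gene whose symbol starts with Pcdha, Pcdhb, Pcdhga, Pcdhgb or Pcdhgc, which includes Pcdhac1 and Pcdhac2. They form 3 clusters, with 14 Pcdha genes, 22 Pcdhb genes and 22 Pcdhg genes. The members were picked by symbol alone, but the family was chosen by the knockout-against-control differences of Pcdha7 and Pcdha9, so everything the members show in that contrast is given as a description and supports nothing. The libraries hold ribosome-bound RNA from whole mouse cerebellum at postnatal day 56, pulled down through an HA-tagged Rpl22 that Cre driven by the Pcp2 promoter switches on in Purkinje cells. The 4 knockout mice were Pcp2Cre;Tie2flox/flox;Rpl22HA/HA and the 7 control mice Pcp2Cre;Rpl22HA/HA, so both groups carried the Cre and the tagged ribosome and only the knockouts are labelled with floxed alleles. Tie2, encoded by Tek, is the receptor tyrosine kinase for angiopoietins. Batch 1 holds knockouts F371 and M374 and control M379, batch 2 knockout M390 and control M386, and batch 3 knockout M456 and controls F473, M476, M477, M479 and M480. Each library is named by its animal tag, and p-values measure the spread between these libraries.

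Clustered protocadherins are cadherin-like adhesion molecules of neurons that bind copies of themselves on a facing membrane. A neuron uses a limited set of isoforms, each read from its own promoter, and the resulting surface code lets sister dendrites of the same cell recognise and avoid each other. Purkinje cells are a classic case: most alternate Pcdha and Pcdhg isoforms are chosen at random cell by cell, whereas the C-type isoforms at the end of the Pcdha and Pcdhg clusters are expressed broadly. Each Pcdha or Pcdhg messenger joins a variable first exon to constant exons shared by its whole cluster, and each Pcdhb gene is a single exon of its own.

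In the GRCm38 build of RefSeq, which matched all 58 members by symbol, the clusters lie side by side on chromosome 18, with Pcdha at 36930285 to 37188897, Pcdhb at 37264998 to 37521419 and Pcdhg at 37661775 to 37841873. The Pcdha and Pcdhg gene models of a cluster overlap at their shared constant exons. How reads in those exons were counted is not given in the sources used here, so values of single Pcdha and Pcdhg isoforms may leave them out or divide them. The predicted gene Gm37013, whose model spans most of the locus, had 0 reads in all 11 libraries. Because the table gives no exon lengths, CPM (a gene's reads relative to its library's total, after TMM scaling) is a level per length only for the intronless Pcdhb genes, and sums over a cluster compare libraries, not genes.

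Library depth was 2.58 to 4.2 M reads in the knockouts and 4.09 to 5.14 M in the controls, so the knockouts were counted with fewer reads. Tek had 0, 7, 0 and 14 reads in knockouts F371, M374, M390 and M456, and 1, 0, 12, 11, 21, 8 and 40 in controls M379, M386, F473, M476, M477, M479 and M480, with a fitted log2 fold change of 0.87 ± 0.95 (SE, edgeR adjusted p = 0.522). The reads of Tek therefore did not separate the labels, and the position of the floxed part is not given in the sources used here. All 20 Purkinje cell markers passed the low-count filter. In the knockouts 5 of them rose, Calb1, Car8, Pvalb, Foxp2 and Slc32a1, and 3 fell, Homer3, Lhx1 and Cacna1g. No marker of other cells was called lower. Called higher were 11 of 16 tested granule cell markers, 10 of 15 of Bergmann glia and astrocytes and 4 of 15 oligodendrocyte markers. So were 3 of 10 microglial, 4 of 8 interneuron, 2 of 4 choroid plexus and 1 of 10 endothelial and mural markers. Of all tested genes 10.9% were called higher and 13.4% lower. The 1 of 10 endothelial and mural markers higher and the 3 of 20 Purkinje markers lower lie near those shares. A purity score, which subtracts the average log2 CPM of granule, glial and oligodendrocyte markers from that of Purkinje markers, was 3.31, 2.57, 3.70 and 2.34 in knockouts F371, M374, M390 and M456, 4.05 and 4.06 in controls M379 and M386, and 3.01 to 3.45 in the controls of batch 3. The part of these differences in any protocadherin result was not tested, and in bulk RNA a smaller share of Purkinje cells and less RNA per Purkinje cell cannot be told apart.

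The 3 clusters behaved differently between the genotypes. The summed Pcdha level was 14.4, 2.65, 43.5 and 27.2 CPM in knockouts F371, M374, M390 and M456, and 70.7 CPM at the lowest, 182 at the median and 268 at the highest among the 7 controls. Every knockout lay under every control. Within batch the knockout mean was 8.69% of the control in batch 1, 61.6% in batch 2 and 12.8% in batch 3. M390 of batch 2 was thus the knockout closest to its own control. Only 9 Pcdha reads in all were counted in M374, among 3.35 M reads.

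The Pcdhb cluster was level with the control or above it in each batch. Its summed level was 528, 521, 442 and 446 CPM in the same 4 knockouts and 344 to 459 CPM in the controls, which gave 144%, 106% and 103% of the control in batches 1, 2 and 3. The ranges of the groups overlapped, and M390 and M456 lay inside the control range.

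The Pcdhg cluster differed mainly by batch. Controls M379 and M386 held 54.4 and 25.8 CPM, while the 5 controls of batch 3 held 174 to 318 CPM. Knockouts F371, M374 and M390 held 39.2, 33.9 and 10.4 CPM, and knockout M456 of batch 3 held 169 CPM, just under the lowest control of its batch. Within batch the knockouts reached 67.2%, 40.1% and 71.4% of the control, where M379 and M386 were the only controls of their batches.

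**Figure D1:**
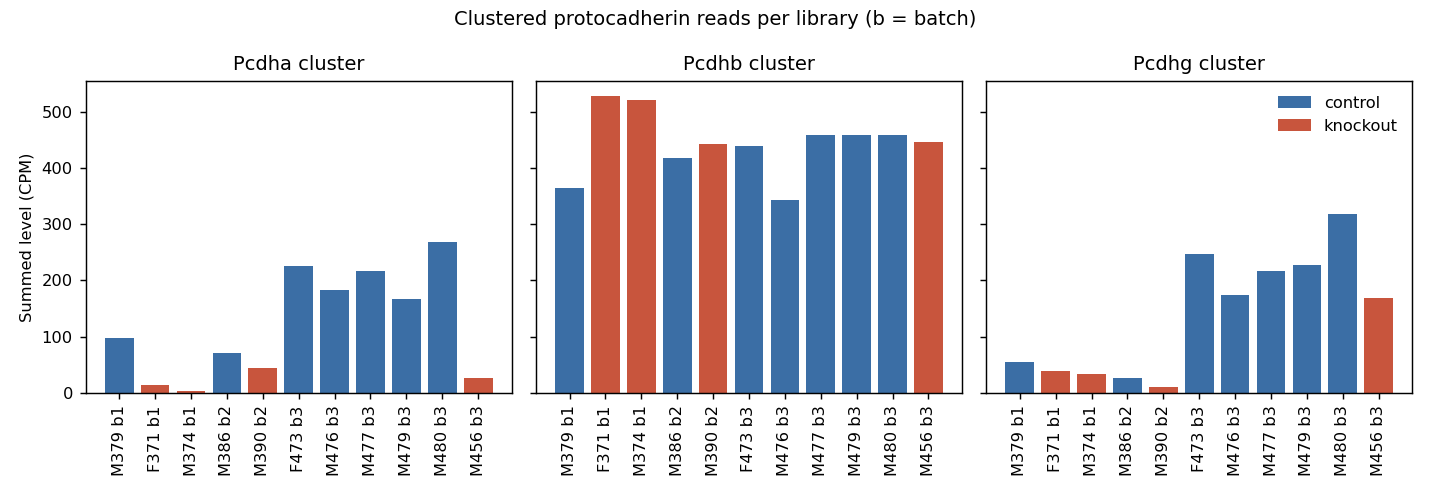
Summed level of each cluster in CPM (vertical axis, from 0) for each of the 11 libraries, ordered by batch (b1 to b3), controls in blue and knockouts in red. Pcdha bars of the 4 knockouts are the lowest of their panel, Pcdhb bars stand between 344 and 528 CPM, and the 6 tallest Pcdhg bars, from 169 CPM, are those of batch 3.

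The make-up of the family differed accordingly. Of all clustered protocadherin reads, Pcdha took 21.9% ± 4.59, Pcdhb 56.8% ± 13.7 and Pcdhg 21.3% ± 9.57 in the controls (SD, n = 7), against 3.99% ± 3.54, 85.7% ± 10.98 and 10.3% ± 10.9 in the knockouts (SD, n = 4). These means pool batches that hold unequal numbers of each genotype. Within batch 3 the Pcdhg share of knockout M456, 26.3%, lay inside the 24.3% to 30.5% of its controls, while its Pcdha share of 4.23% lay under their 19.6% to 26.0%. In batch 1 the Pcdha share was 2.48% and 0.475% in F371 and M374 against 19.0% in M379, and the Pcdhg share 6.75% and 6.08% against 10.5%. In batch 2 M390 had a Pcdha share of 8.78% against 13.8% in M386, and a Pcdhg share of 2.09% against 5.02%. The summed level of the whole family was 110%, 96.6% and 73.0% of the control within batches 1, 2 and 3.

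The number of isoforms with a read followed the same clusters. With every library thinned to the 2583227 reads of the smallest, 39 to 56 of 58 members had a read in a control and 33 to 48 in a knockout (51.4 ± 5.71 and 37.8 ± 6.95, SD, n = 7 and 4). For Pcdha the range was 8 to 14 of 14 in controls and 2 to 8 in knockouts, and for Pcdhb 20 to 22 of 22 in controls and 20 or 21 in knockouts. For Pcdhg it was 20 or 21 of 22 in the controls of batch 3 and 19 in M456, but 11 and 18 in the other controls and 9 or 10 in the other knockouts. A member without a read is not detectable at this depth, which is not the same as absent.

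**Figure D2:**
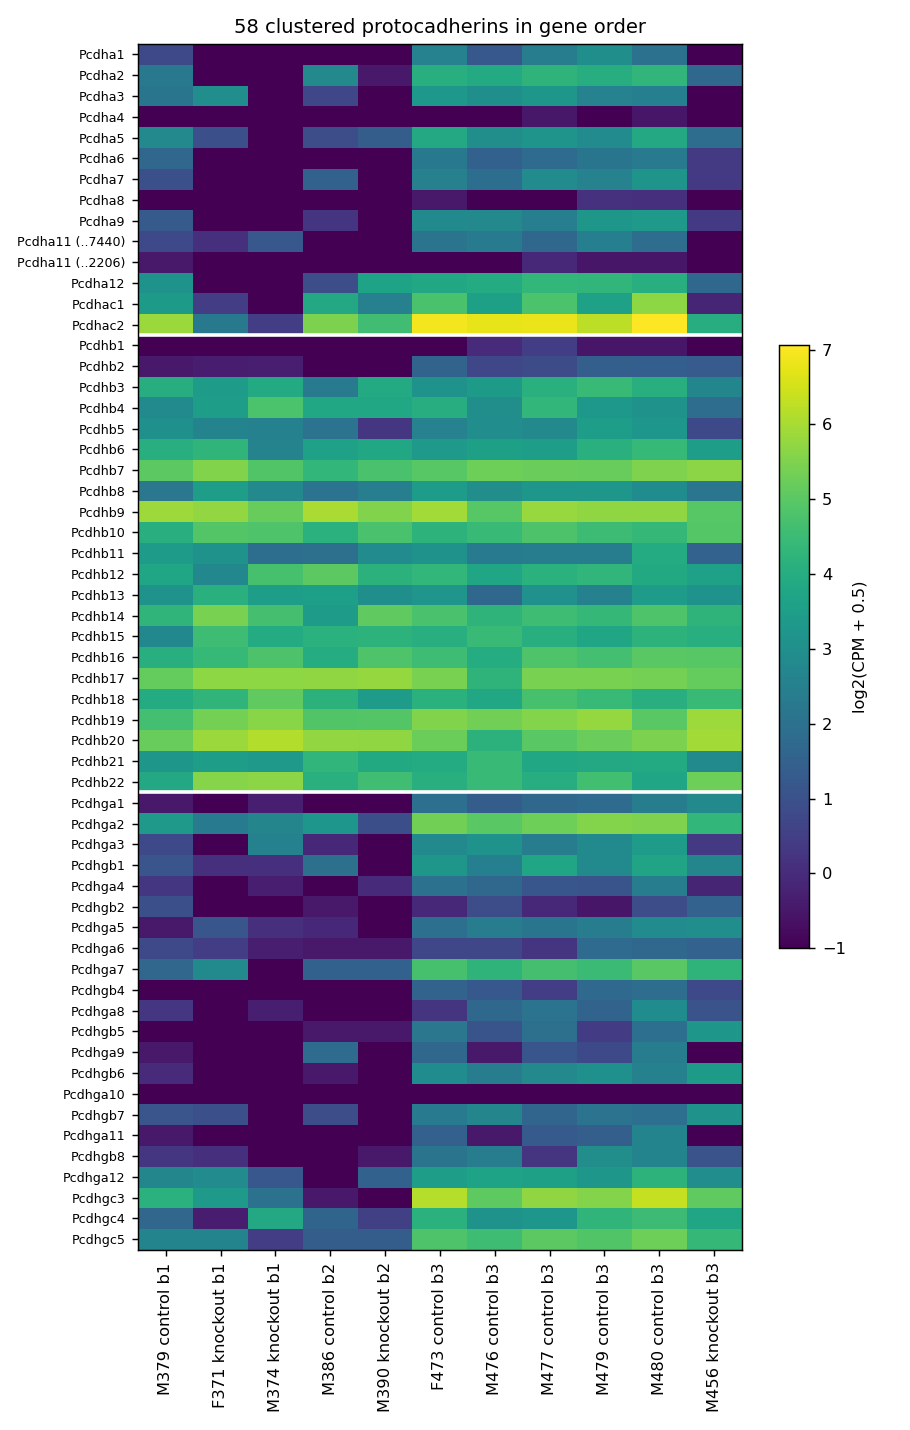
Level of all 58 members (rows, in gene order along each cluster, white lines between clusters) in the 11 libraries (columns, ordered by batch), coloured by log2(CPM + 0.5). Dark cells dominate the Pcdha rows of the 4 knockouts and the Pcdhg rows of the libraries outside batch 3, while the Pcdhb rows keep their colour from library to library.

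Of the 58 members, 46 passed the low-count filter (11 Pcdha, 20 Pcdhb and 15 Pcdhg genes), and the other 12 had 0 to 75 reads in all libraries together. In the model with batch and genotype, 9 members were called lower in the knockouts and 1 higher at an adjusted p under 0.05, where 13.4% of all 13375 tested genes were called lower and 10.9% higher. For 4 tested members, Pcdha2, Pcdha7, Pcdhac1 and Pcdhac2, all knockouts lay under all controls, as they did for 6.74% of tested genes, and the same held for Pcdhga9, which was not tested. Nothing is read from these counts, because this contrast was in view when the family was chosen. The median log2 fold change was -3.28 over the 11 tested Pcdha genes, 0.16 over the 20 Pcdhb genes and -0.13 over the 15 Pcdhg genes, against -0.02 over all tested genes. With Pcdha1, which had no knockout read, set at its within-batch bound, the Pcdha median was -2.71.

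Fitted changes of the Pcdha genes were all negative, from -5.60 to -1.62, and 7 of 11 were called lower. By ratios of mean CPM in each batch, 6 of the 14 were lower in all 3 batches: Pcdha2, Pcdha3, Pcdha7, Pcdha9, Pcdhac1 and Pcdhac2. For Pcdha3 the batch 1 log2 ratio was -0.078, with F371 at 7.21 CPM above control M379 at 3.83. For Pcdha9 batch 2 rests on 0 reads in M390 against 3 in M386. The share of all genes lower in all 3 batches is not given here, so nothing is read from this count. The calls rest on few libraries, with 3 members called lower without control M379 (Pcdha2, Pcdhac2 and Pcdhga2) and 4 without knockout M456 (Pcdha2, Pcdha7, Pcdha9 and Pcdhac2). The call of Pcdha1 was also lost without F473, M477, M479 or M480, and that of Pcdha6 without F371 or M374. No member was called with the library total or the purity score as a covariate, although 12 and 10 members, among 1841 and 1087 genes, had an unadjusted p under 0.05 in those fits.

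Pcdhac2 (ENSMUSG00000102697, chromosome 18, 37143678 to 37187663) is the last, C-type isoform of the Pcdha cluster, known for its part in the spacing of serotonergic axons. It had 56.6 CPM in control M379 against 4.33 and 0.884 in knockouts F371 and M374 of batch 1. In batch 2 it had 43.3 CPM in control M386 against 23.8 in knockout M390, and in batch 3 75.7 to 132 CPM in the controls against 15.6 in knockout M456. The lowest control thus stood above the highest knockout, and the fitted log2 fold change was -2.71 ± 0.44 (SE). It had the most reads of its cluster in all 7 controls and in M390 and M456, but Pcdha3 led in F371 with 25 of 50 reads and Pcdha11 (ENSMUSG00000007440) in M374 with 6 of 9.

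Pcdhac1 (ENSMUSG00000103255), the other C-type isoform of the cluster, showed a wider spread. Its level was 0.865, 0, 5.17 and 0.4 CPM in knockouts F371, M374, M390 and M456. Among the controls it ran from 10.1 CPM in M379 through a median of 14.0 to 50.5 in M480, and the log2 fold change was -3.42 ± 0.75 (SE). The groups did not overlap, and M390 again stood highest among the knockouts. C-type isoforms took 66.3% ± 8.42 of Pcdha reads in controls (SD, n = 7) and 48.7% ± 16.5 in knockouts (SD, n = 4). The lowest knockout shares rest on few reads. M374 had 3 of 9 (33.3%, exact 95% binomial interval 7.49% to 70.1%) and F371 18 of 50 (36%, 22.9% to 50.8%). Control M379 of their batch had 67.8%. The other knockouts lay inside the control range of 52.4% to 81.1%, M390 at 66.5% and M456 at 58.8%. M390 was under the 81.1% of its batch control M386, and M456 was inside the 52.4% to 68.2% of its batch controls. The means above pool batches that hold unequal numbers of each genotype.

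Alternate isoforms make up the rest of the cluster. Pcdha2 (ENSMUSG00000104148) had 0, 0, 1 and 7 reads in knockouts F371, M374, M390 and M456, against 18 in M379, 28 in M386 and 64 to 97 in the controls of batch 3. No knockout reached any control, and the fitted change was -3.61 ± 0.57 (SE). Pcdha7 (ENSMUSG00000104318, 36973811 to 37187663) had reads in M456 alone of the knockouts, 2 of them, against 6 in M379, 10 in M386 and 14 to 43 in the controls of batch 3. Pcdha9 (ENSMUSG00000103770, 36997880 to 37187657) likewise had 2 reads in M456 and none in the other knockouts, against 8, 3 and 23 to 50 in the controls. These are the genes with which the family was proposed, at fitted changes of -3.84 ± 0.85 and -3.87 ± 0.81 (SE). In batch 3 the control level was 7.44 times that of M456 for Pcdha7 (exact 95% counting interval 2.02 to 62.1) and 9.37 times for Pcdha9 (2.56 to 78.0).

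Pcdha6 had the same pattern in the knockouts, 2 reads in M456 and 0 elsewhere, but also 0 in control M386, against 11 in M379 and 10 to 22 in batch 3. Pcdha1 (ENSMUSG00000103442) had no read in any knockout or in M386, 5 in M379 and 8 to 37 in the controls of batch 3. Taking 3 reads over the knockouts of a batch as the floor, Pcdha1 was at least 2.74-fold lower in the knockouts of batch 1 and at least 3.89-fold lower in that of batch 3. Neither gene had a read in batch 2.

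The remaining alternate isoforms were less uniform. Pcdha12 (ENSMUSG00000103310) had 0 reads in F371 and M374 and 7 in M456, but 52 in M390 against 6 in its batch control M386. Its within-batch log2 ratios were -4.15, 2.76 and -2.39, so batch 2 ran against the others, and the fitted change of -2.0 ± 1.03 (SE) was not called. Pcdha3 had 25 reads in F371 and none in the other knockouts, against 5 to 42 in the controls. Pcdha5 had 0 to 9 reads in the knockouts and 6 to 71 in the controls. Pcdha4, Pcdha8 and the second gene carrying the symbol Pcdha11 (ENSMUSG00000102206) had 2, 7 and 5 reads in all, all of them in controls, and were not tested.

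**Figure D3:**
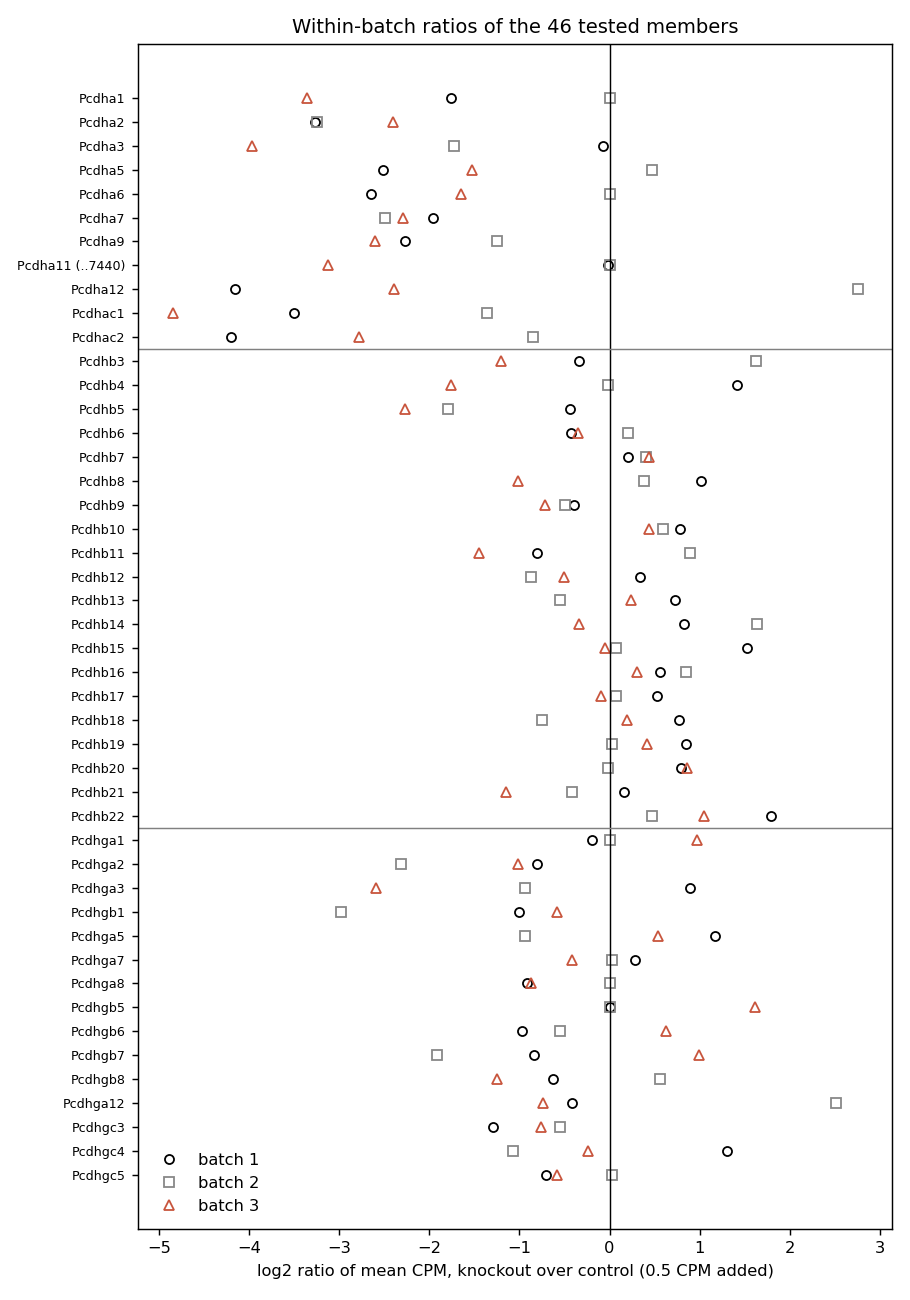
Log2 ratio of the knockout to the control mean CPM within each batch (horizontal axis, 0.5 CPM added to both) for the 46 tested members (rows), with circles for batch 1, squares for batch 2 and triangles for batch 3. Most Pcdha points lie left of 0, Pcdha12 has its batch 2 square at 2.76, and the Pcdhb and Pcdhg points lie on both sides.

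Pcdhb proteins lack the constant cytoplasmic part and share the adhesive outer domains of the family. Per kilobase of gene, the control level ran from 0.101 CPM for Pcdhb1 to 17.6 ± 3.64 CPM for Pcdhb9 (SD, n = 7). Pcdhb17 followed at 12.0 ± 3.21, more than 1 SD lower, then Pcdhb20 at 10.8 ± 3.21, Pcdhb7 at 9.66 ± 2.17 and Pcdhb19 at 8.22 ± 2.30 CPM per kilobase. From Pcdhb17 on, these neighbours differed by less than 1 SD. Pcdhb1 and Pcdhb2, the first genes of the cluster, had 8 and 52 reads in all and were not tested. The other 20 genes had at least 44 knockout reads each.

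In the knockout contrast 18 of the 20 tested Pcdhb genes were not called, with 12 positive and 8 negative fitted changes between -1.63 and 1.16. Pcdhb22 (ENSMUSG00000073591, 37518353 to 37521419), the last gene of the cluster, was the single member called higher. It had 48.2 and 50.4 CPM in knockouts F371 and M374 against 13.9 in control M379. In batch 2 it had 23.5 CPM in M390 against 16.8 in M386, and in batch 3 38.0 in M456 against 13.2 to 24.0 in the controls. Each knockout stood above the control or controls of its batch, but M390 lay under the highest control, M479, and the log2 fold change was 1.16 ± 0.28 (SE). Pcdhb22 was no longer called without M379 or without M456.

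Pcdhb5 was called lower, at -1.63 ± 0.57 (SE). It had 5.77 and 5.31 CPM in F371 and M374 against 7.67 in M379, 0.706 in M390 against 3.68 in M386, and 1.20 in M456 against 5.40 to 10.6 in the controls of batch 3. It had 3 reads in each of M390 and M456, and its call was lost without batch 2 and when any library other than F371 was left out. Pcdhb9, the highest per length, was at 52.8, 35.7, 46.1 and 30.4 CPM in the knockouts and 31.0 to 65.2 in the controls, ranges that overlap almost throughout, with a fitted change of -0.55 ± 0.22 (SE), not called. Pcdhb20 had 52.2 to 69.0 CPM in the knockouts and 17.6 to 53.0 in the controls, and its change of 0.62 ± 0.25 (SE) was not called. By within-batch ratios Pcdhb7, Pcdhb10, Pcdhb16, Pcdhb19 and Pcdhb22 were higher, and Pcdhb5 and Pcdhb9 lower, in all 3 batches. The batch 2 log2 ratio of Pcdhb19 was only 0.030. Shares of all genes with the same sign in all 3 batches are not given here, so nothing is read from these lists.

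Among the Pcdhg genes only Pcdhga2 (ENSMUSG00000103332, 37668927 to 37841870) was called in the knockout contrast. It had 4.62 and 5.90 CPM in F371 and M374 against 9.59 in M379, 1.41 in M390 against 8.98 in M386, and 19.6 in M456 against 31.4 to 46.8 in the controls of batch 3. Each knockout was under the controls of its batch, although M456 stood above both controls of the other batches, and the fitted change was -1.27 ± 0.31 (SE). It was not called without M456. Pcdhgb1 and Pcdhgc3 were also lower in all 3 batches, at fitted changes of -1.46 ± 0.65 and -1.02 ± 0.37 (SE), neither called, as was the untested Pcdhga9, which had 65 reads in controls and 0 in knockouts. In 1 batch each, the sign rests on a single control read. For Pcdhgc3 this was batch 2, with 1 read in M386 and 0 in M390. For Pcdhga9 it was batch 1, with 1 read in M379 and 0 in F371 and M374. Pcdhga11 had 61 reads in controls, 60 of them in batch 3, and 0 in knockouts. Pcdhga10 had no read in any library.

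The C-type Pcdhg isoforms have known roles of their own: Pcdhgc3 binds Axin1 and shapes dendrites, Pcdhgc4 is needed for the survival of many neurons, and Pcdhgc5 associates with GABA-A receptors. Pcdhgc4 had 1, 48, 4 and 32 reads in F371, M374, M390 and M456, against 11 in M379, 11 in M386 and 36 to 114 in batch 3. M374 lay above its control and F371 under it, and the fitted change was 0.07 ± 0.77 (SE), a sign that turned in 5 alternative fits. Pcdhgc5 was at 5.77, 0.884, 2.12 and 19.97 CPM in the knockouts, against 5.75 in M379, 2.07 in M386 and 23.1 to 38.5 in batch 3, with a change of -0.54 ± 0.40 (SE). C-type isoforms took 39.8% ± 9.88 of Pcdhg reads in controls (SD, n = 7) and 40.9% ± 10.4 in knockouts (SD, n = 4), a difference smaller than the spread in either group.

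**Figure D4:**
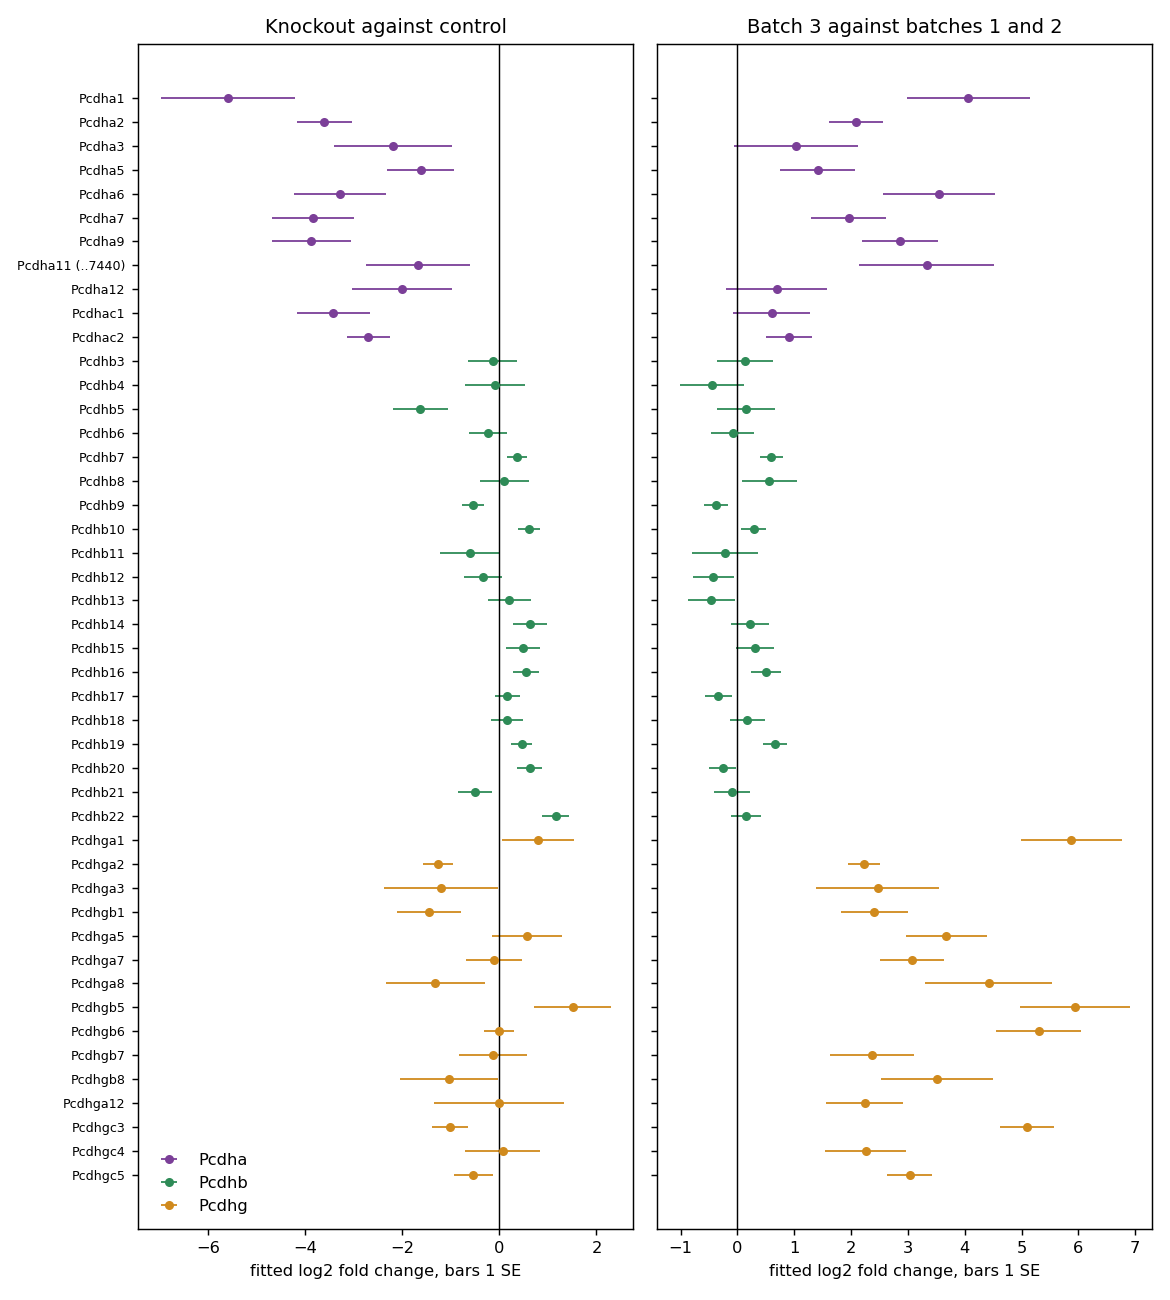
Fitted log2 fold changes (points) with 1 SE (bars) of the 46 tested members, knockout against control on the left and batch 3 against batches 1 and 2 on the right, coloured by cluster. On the left the Pcdha points run from -5.60 to -1.62 and the other clusters lie around 0, and on the right the Pcdhg points run from 2.23 to 5.94.

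The batch difference of the Pcdhg cluster was set against the rest of the table with the batch term of the same model, batch 3 against the mean of batches 1 and 2. This comparison was added after the values had been seen, and it does not use the knockout contrast. In it 14 of 15 tested Pcdhg genes were called higher in batch 3, all but Pcdhga3, with 4 of 11 Pcdha genes (Pcdha1, Pcdha2, Pcdha6 and Pcdha9) and 1 of 20 Pcdhb genes (Pcdhb19). No member was called lower. Of all tested genes 11% were called higher and 6.36% lower. The median log2 difference was 3.07 over the Pcdhg genes, 1.96 over the Pcdha genes, 0.14 over the Pcdhb genes and -0.01 over all tested genes. The low-count filter ran over all libraries, so a gene could be tested through the libraries of batch 3 alone. Pcdhgb6, Pcdhgb5 and Pcdhga1, with almost no reads elsewhere, entered that way. The counts and medians of this comparison are therefore partly set by the filter and are given as a description.

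Pcdhgc3 (ENSMUSG00000102918, 37806410 to 37841873) had the most reads of its cluster in 6 of the 7 controls. It had 71 reads in M379 and 1 in M386, 34, 12 and 0 in F371, M374 and M390, but 142 to 412 in the controls of batch 3 and 83 in knockout M456. All 6 libraries of batch 3 stood above all 5 others, and the fitted difference was 5.10 ± 0.47 (SE, edgeR adjusted p = 2.1e-05). Pcdhgb6 had 0 to 2 reads outside batch 3 and 21 to 38 in it, a difference of 5.30 ± 0.75 (SE). It passed the low-count filter through batch 3 alone, so its p-value is not given. Pcdhgb5 had 0 or 1 read outside batch 3 and 4 to 23 within it, and Pcdhga1 0 or 1 outside and 9 to 24 within. In both, knockout M456 was within the range of the batch 3 controls by reads or above it.

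In a fit of the controls alone, over the same tested genes, 14 Pcdhg genes were also called higher in batch 3. Within the 7 controls the summed Pcdhg level in batch 3 was 5.9 times that of the other batches, against 2.51 times for Pcdha and 1.10 times for Pcdhb. Some cell type markers differed between the batches too, and none was called lower in batch 3. Called higher were 7 of 10 tested endothelial and mural markers, 8 of 15 oligodendrocyte markers and 8 of 15 markers of Bergmann glia and astrocytes. So were 5 of 16 granule cell, 6 of 20 Purkinje, 2 of 4 choroid plexus, 1 of 10 microglial and 1 of 8 interneuron markers. Of all tested genes 11% were called higher and 6.36% lower, and the microglial and interneuron counts lie near the higher share. The summed endothelial and mural level was 51.5 to 142 CPM in the batch 3 controls and 21.6 to 22.1 CPM in the other controls. With the purity score as a covariate 2 Pcdhg genes were called higher in batch 3, and 8 with the libraries thinned to equal depth. Without M480 the count was 8, and without F473, M477, M479 or M456 it was 9. Over the 3 clusters the thinned fit tested 40 members instead of 46. Fits without F473, M477, M479 or M480 tested 42 or 43, and the fit without M456 tested 49. Lower counts can thus include genes no longer tested, which were not counted apart. The part of cell mixture in the batch difference was not tested, and what else set the batches apart is not given in the sources used here.

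All 5 controls of batch 3 share genotype and batch, so their spread shows how far isoform levels vary between animals. Over members with a mean of 10 to 300 reads, the median coefficient of variation was 27.0% for 10 Pcdha genes, 24.7% for 20 Pcdhb genes and 30.4% for 15 Pcdhg genes, beside 23.5% for 7626 tested genes in that range. Each gene's coefficient was also divided by its own counting error. The medians of these ratios were 1.59, 2.39, 2.10 and 1.95 in the same order. Pcdhac1, at 62.5%, varied more than any other Pcdha gene in that range, between 50 reads in M476 and 256 in M480, while Pcdha2 varied by 10.6%, close to counting error. Pcdhb11, at 60.9%, and Pcdhga8, at 71.1%, had the widest spread of their clusters.

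**Figure D5:**
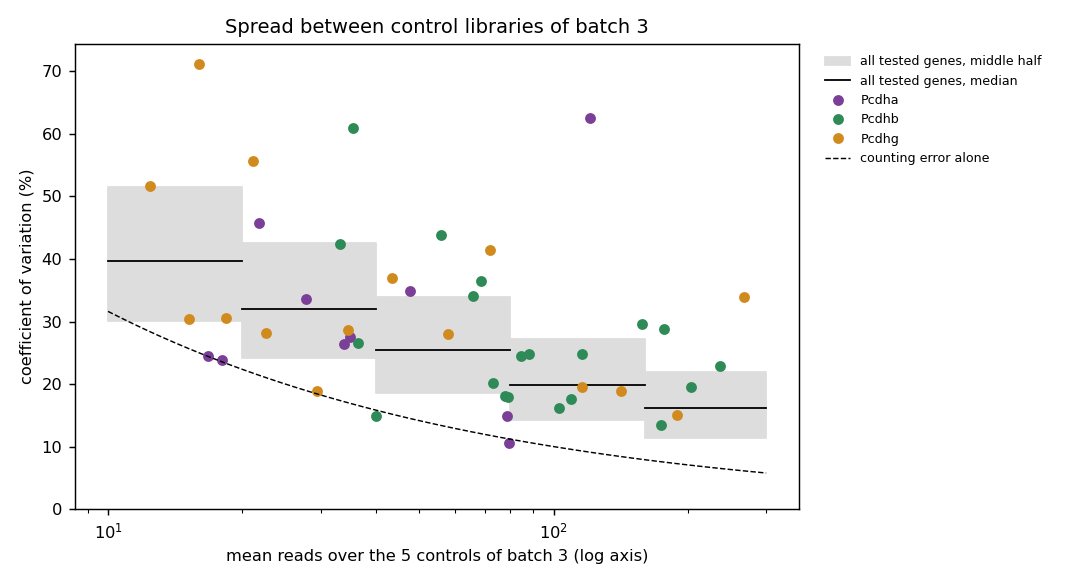
Coefficient of variation (percent) over the 5 controls of batch 3 against the mean reads (log axis) for members with 10 to 300 mean reads, coloured by cluster, over the median and middle range of all tested genes (black line and grey box) and the counting error (dashed). Pcdhac1 is the purple point at 62.5%, and most members lie in or near the grey boxes.

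The rank order of isoform levels in CPM within a cluster was much alike among these 5 controls. Spearman's rho over the members ranged over the 10 pairs from 0.89 to 0.96 for Pcdha, 0.74 to 0.94 for Pcdhb and 0.82 to 0.92 for Pcdhg, as a description over genes that share library and depth. Against the mean of these controls, rho for Pcdhb was 0.86 to 0.93 in the 4 knockouts. For Pcdha it was 0.48 in F371, 0.17 in M374, 0.83 in M390 and 0.74 in M456, and the first 2 of these hold 50 and 9 reads.

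Isoform choice depends on CTCF and cohesin, which loop the distant enhancers to a promoter, and on DNA methylation and repressive chromatin. Of 21 tested genes of a list of such regulators, 4 rose and 3 fell in the knockouts. As 10.9% of all tested genes were called higher and 13.4% lower, nothing is read from the counts of this or the next lists. Ctcf itself rose by a log2 fold change of 0.60 ± 0.13 (SE, edgeR adjusted p = 0.00572), from 85.8 ± 6.77 to 138 ± 26.6 CPM (SD, n = 7 and 4). Smchd1, a chromatin protein that helps silence the protocadherin clusters, rose by 0.88 ± 0.20 (SE, edgeR adjusted p = 0.00682). The cohesin genes Stag2 and Pds5b rose as well, by 0.69 ± 0.16 and 0.66 ± 0.16 (SE). Wiz, a partner of the G9a and GLP histone methyltransferases, fell by 0.94 ± 0.18 on the log2 scale (SE, edgeR adjusted p = 0.00322), and Trim28, a corepressor, and Mau2, a cohesin loader, fell by 0.64 ± 0.12 and 0.53 ± 0.16 (SE). Dnmt3b, the methyltransferase of the alternate promoters, was too low to test, with 0 to 12 reads in a library. Setdb1, which represses the clusters in neurons, was not called, at 0.34 ± 0.24 (SE).

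Protocadherins are shed at the membrane by Adam10 and then cut by gamma-secretase, and their inner part acts on Ptk2, Ptk2b and the WAVE complex. Of 25 tested genes of that list 5 rose and 2 fell, against the same shares of 10.9% and 13.4%. Marcks, an actin-binding protein downstream of the Pcdhg proteins in dendrites, rose by 1.34 ± 0.18 (SE, edgeR adjusted p = 0.0014). The WAVE genes Wasf1, Wasf3 and Brk1 rose by 0.77 ± 0.20, 0.48 ± 0.14 and 0.37 ± 0.11 (SE), as did Cdc42 by 0.30 ± 0.09 (SE). In batch 2 alone their log2 ratios were -0.019, 0.078, 0.17 and 0.039 in that order. Ncstn, a subunit of gamma-secretase, fell by 1.01 ± 0.26 on the log2 scale (SE, edgeR adjusted p = 0.0116). Adam10, Ptk2 and Ptk2b were not called.

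Of 10 tested protocadherins outside the clusters, 3 rose and none was called lower: Pcdh17 by 0.58 ± 0.11, Pcdh8 by 1.49 ± 0.43 and Pcdh1 by 2.48 ± 0.85 (SE), the last at 1.95 ± 1.64 CPM in the controls. In batch 2 alone their log2 ratios were 0.28, 1.22 and 0. Of 8 tested genes of other self-avoidance and neurite adhesion systems, Dscam fell by 0.72 ± 0.21 on the log2 scale (SE, edgeR adjusted p = 0.0234), and Robo2 and Slit2 were not called. Of 15 tested genes that flank the locus 2 were called higher and 1 lower, near the shares over all genes: Zmat2 and Ndufa2 rose by 0.64 ± 0.13 and 0.49 ± 0.14 (SE), and Rell2 fell by 2.48 ± 0.61 on the log2 scale (SE). Batch 2 log2 ratios were 0.063 for Zmat2, 0.0083 for Ndufa2 and -0.53 for Rell2. Taf7, which lies between the Pcdhb and Pcdhg clusters, was not called, at 0.54 ± 0.19 (SE). The median log2 fold change was -0.25 over these neighbours and 0.40 over the non-clustered protocadherins, beside -3.28 over the Pcdha genes, given as a description. No gene of these 5 lists was called with the library total or the purity score as a covariate, since no gene of the table was.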

How the data were processed

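Ribosome-bound RNA of 11 cerebella, 1 library per mouse, was measured. The deposited files hold whole-number read counts per gene, made with STAR, HTSeq and GRCm38 per the submitters' processing notes. Versions, strand and counting options were not given in the sources used here. All 5 summary lines that name no gene were left out. They include reads outside genes, 7.16% ± 0.557 in controls and 9.07% ± 2.09 in knockouts (SD, n = 7 and 4), and ambiguous reads, 4.10% and 3.95%. Even the most alike libraries, M477 and M479, differed beyond sampling noise (chi-square over its degrees of freedom 2.46), so none was counted as a copy.

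Counts were fitted with edgeR 4.0.16 (R 4.3.3) after filterByExpr (13375 genes kept) and TMM scaling, with batch and genotype and 7 residual degrees of freedom. Two-sided quasi-likelihood p-values were adjusted by the Benjamini-Hochberg method over the tested genes, at a threshold of 0.05. Each SE of a fitted change was derived as its absolute value over the square root of the quasi-likelihood F, not given by the fit. It is unsteady for changes near 0: Pcdhga12 and Pcdhgb6, both at -0.01 in the knockout contrast, had 1.33 and 0.32. Within-batch ratios add 0.5 CPM, and the purity score used a prior count of 2. Intervals and floors cover counting error only, and without molecular identifiers reads cannot be taken as separate molecules. Members and gene lists were chosen with earlier results of these data known. Named genes were the C-type isoforms, the 4 highest members of each cluster in controls (per kilobase for Pcdhb, by CPM for the others), all called members, Pcdha7 and Pcdha9, up to 4 called genes of each list with the smallest p, and Ctcf, Smchd1, Dnmt3b and Tek. Stag2, Pds5b, Mau2, Setdb1, Wasf3, Brk1, Cdc42, Taf7 and further members were named after their values were seen. A named gene of the lists is not reported here. Cluster shares per kilobase were planned but are given without length, because no exon lengths were at hand. Alternatives were other scalings, filters, thresholds, libraries left out, covariates, thinning and DESeq2 1.42.0.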

Additional observations from a re-analysis of the deposited data

Results flagged for a closer look

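Libraries that stood apart within their group were sought in 44 groups of values, and 7 were found. For continuous, normally distributed values chance flags about 1 in 20, a rate that does not hold for counts near 0. The number of flags is therefore not set against chance. Pcdhac1 was highest among the controls in M480, at 50.5 CPM, with the next control at 26.8 and the lowest at 10.1. Among the knockouts Pcdhac1 was highest in M390, at 5.17 CPM, with the next at 0.865. Pcdha2 was highest among the knockouts in M456, at 2.80 CPM, with the next at 0.235. Pcdha6, Pcdha7 and Pcdha9 were each at 0.799 CPM in knockout M456 and at 0 in the other 3 knockouts, and that value stands for 2 reads in each gene. With the other knockouts at 0, any read in M456 would have been flagged. Pcdhb9 was lowest among the controls in M476, at 31.0 CPM, with the next at 51.7 and the highest at 65.2. M456 is the knockout of batch 3, where the controls also had more reads of these Pcdha genes, and the part of batch in its values was not tested.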

How the results depend on the processing

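The count of members called lower, 9, became 0 once the library total or the purity score was a covariate, and 3 to 11 with 1 library left out (3 without M379, 4 without M456). The count called higher, 1, became 3 with the DESeq2 Wald test, 2 without the batch term, 3 without batch 2, 0 with either covariate and 0 to 3 with 1 library left out. Over all genes the 1796 lower calls became 0 with either covariate, 760 at an adjusted p under 0.01 and 216 to 2397 with 1 library left out (216 without M379, 271 without M456). The 1461 higher calls became 0 with either covariate, 2262 without batch 2, 511 at an adjusted p under 0.01 and 64 to 2269 with 1 library left out (64 without M456, 306 without M379). The 14 Pcdhg genes called higher in batch 3 became 2 with the purity score, 8 with thinning, 8 at an adjusted p under 0.01 and 8 to 16 with 1 library left out. Members tested were 40 with thinning and 42 to 49 with 1 library left out, against 46 in the main fit.

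The Pcdha median of -3.28 was -3.11 with DESeq2, -2.20 with the library total, -3.60 without the batch term, -2.60 without a filter, -2.98 with the purity score and -3.41 to -2.68 with 1 library left out. The Pcdhb median of 0.16 was 0.60 with the library total and -0.025 to 0.39 with 1 library left out, negative without M379. The Pcdhg median of -0.13 was -0.52 with a filter of 1 CPM in 4 libraries, -0.68 in animals tagged M, 0.048 with the library total, -1.47 without the batch term, -0.56 without a filter, -0.63 without batch 2 and -0.80 to -0.063 with 1 library left out.

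Signs of single genes turned in 17 fits. Pcdhgc4 (0.07) went to -2.97 with the purity score, -0.74 without the batch term and -0.81 to 0.46 with 1 library left out. Pcdhga7 (-0.11) went to 0.50 with the library total, 1.09 with the purity score and -0.65 to 0.21 with 1 library left out. Pcdhb17 (0.16) went to -0.20 with the purity score and -0.0052 to 0.33 with 1 library left out. With the purity score Pcdhgc5 went to 0.40, Pcdha12 to 0.99, Pcdhb20 to -0.0088 and Tek (0.87) to -3.18, Tek also to -0.64 without the batch term, and Ndufa2 to -0.0060 with the library total. The cause was not tested, except that leaving out a library lowers the sample number. Of the other single-gene fits 618 kept sign and side of the threshold, 114 lost a call and 15 gained one. Shares per kilobase and other gene lengths were not run. No paired analysis was possible because the labels number no replicates across the groups. Counts as low as 0 to 9 reads in a knockout limit every single Pcdha isoform.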
